A study of Mus musculus with 14 samples.

Results

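Lymph node homing, egress and adhesion genes were followed in regulatory T cells (Tregs), the Foxp3-expressing CD4+ T cells that restrain immune responses. The set holds 9 genes, named by symbol: Ccr7, S1pr1, S1pr4, Selplg, Itga4, Itgb1, Itgb7, Itgal and Itgae. All 9 are rows of the deposited table of 14449 genes, and all 9 passed the filter on low values that left 12329 genes for testing. The cells were CD4+ Foxp3-eGFP+ lymphocytes sorted from lymph nodes of 35-day-old BALB/c mice, 7 libraries from Il1rn-/- and 7 from wild-type (WT) animals. The deleted gene, Il1rn, makes a secreted antagonist of the IL-1 receptor. The reporter allele that marks Foxp3 was carried by the cells of both genotypes. Sample titles divide the libraries into set a (3 Il1rn-/-, 3 WT) and set b (4 Il1rn-/-, 4 WT), without saying what the letters stand for. Nothing in the labels says that libraries came from separate animals, so p-values measure only the spread between libraries.

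Lymphocytes circulate by entering a lymph node, searching it, and leaving it again. CCR7 reads the chemokines CCL19 and CCL21 at the entry vessels and in the T cell zone, and the sphingosine 1-phosphate receptor S1PR1 reads the lipid gradient that draws cells out into lymph. Integrins are pairs of an alpha and a beta chain that turn a rolling contact into firm adhesion. The alpha chain Itga4 pairs with Itgb1 to bind VCAM-1 on inflamed vessels, or with Itgb7 to bind the mucosal addressin of gut-draining sites, and Itgae pairs with Itgb7 to hold cells on E-cadherin of epithelia.

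Depth and library make-up differed between the libraries, and not evenly over sets and genotypes. Per library, 952021 to 3756559 reads fell in genes of the table. The ribosomal RNA precursor Rn45s took 20.3% to 39.95% of reads in 8 libraries (deep group: 5 Il1rn-/-, 3 WT) and 59.6% to 65.8% in the other 6 (shallow group: 2 Il1rn-/-, 4 WT). All of set a was deep and all WT libraries of set b were shallow. In Il1rn-/- of set b, replicates 1-b and 2-b were shallow and 3-b and 4-b were deep. Transcripts from the Y chromosome were found in 4 deep libraries, Il1rn-/- 3-b and 4-b and WT 1-a and 2-a. All 6 shallow libraries belong to set b, so the genotype difference among them is the set b difference without Il1rn-/- 3-b and 4-b, and it is given for each gene. Foxp3 had 315 to 2049 reads per library and Cd4 306 to 1410. Over the 14 libraries their SD was 0.27 and 0.22 log2 CPM, against 1.29 for Cd3e and 0.68 for Ctla4. Cd3e ran with the library group, at 6.97 to 8.11 log2 CPM in the deep and 9.63 to 10.1 in the shallow libraries. Of 8 Treg and T cell markers, 1 was higher and 3 were lower in set a than in set b (adjusted p under 0.05 by limma). Among all tested genes, 11% were higher and 8.48% lower. The table used here has no row for Il1rn, so the genotype labels could not be checked by its transcript.

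Of the 9 genes, 0 passed the test for genotype over all libraries by limma (adjusted p under 0.05), where 0% of all 12329 tested genes were called. At an unadjusted p under 0.05 there were also 0 of 9, against 5.51% of all genes, and limma voom on recovered reads called 0 genes as well. In 0 of 9 genes did the genotypes not overlap over all 14 libraries, against 0.00811% of genes with Il1rn-/- wholly higher and 0.0243% wholly lower. Differences between Il1rn-/- and WT were positive for 6 genes and negative for 3, with a median log2 difference of 0.09 beside 0.04 over all tested genes. Within set a the Il1rn-/- libraries all had more Itga4, Itgb1 and Itgb7 than any WT library, and in set b they did not. That is 3 of 9 genes wholly higher in set a, against 4.36% of all tested genes, and 0 passed after adjustment.

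**Figure D1:**
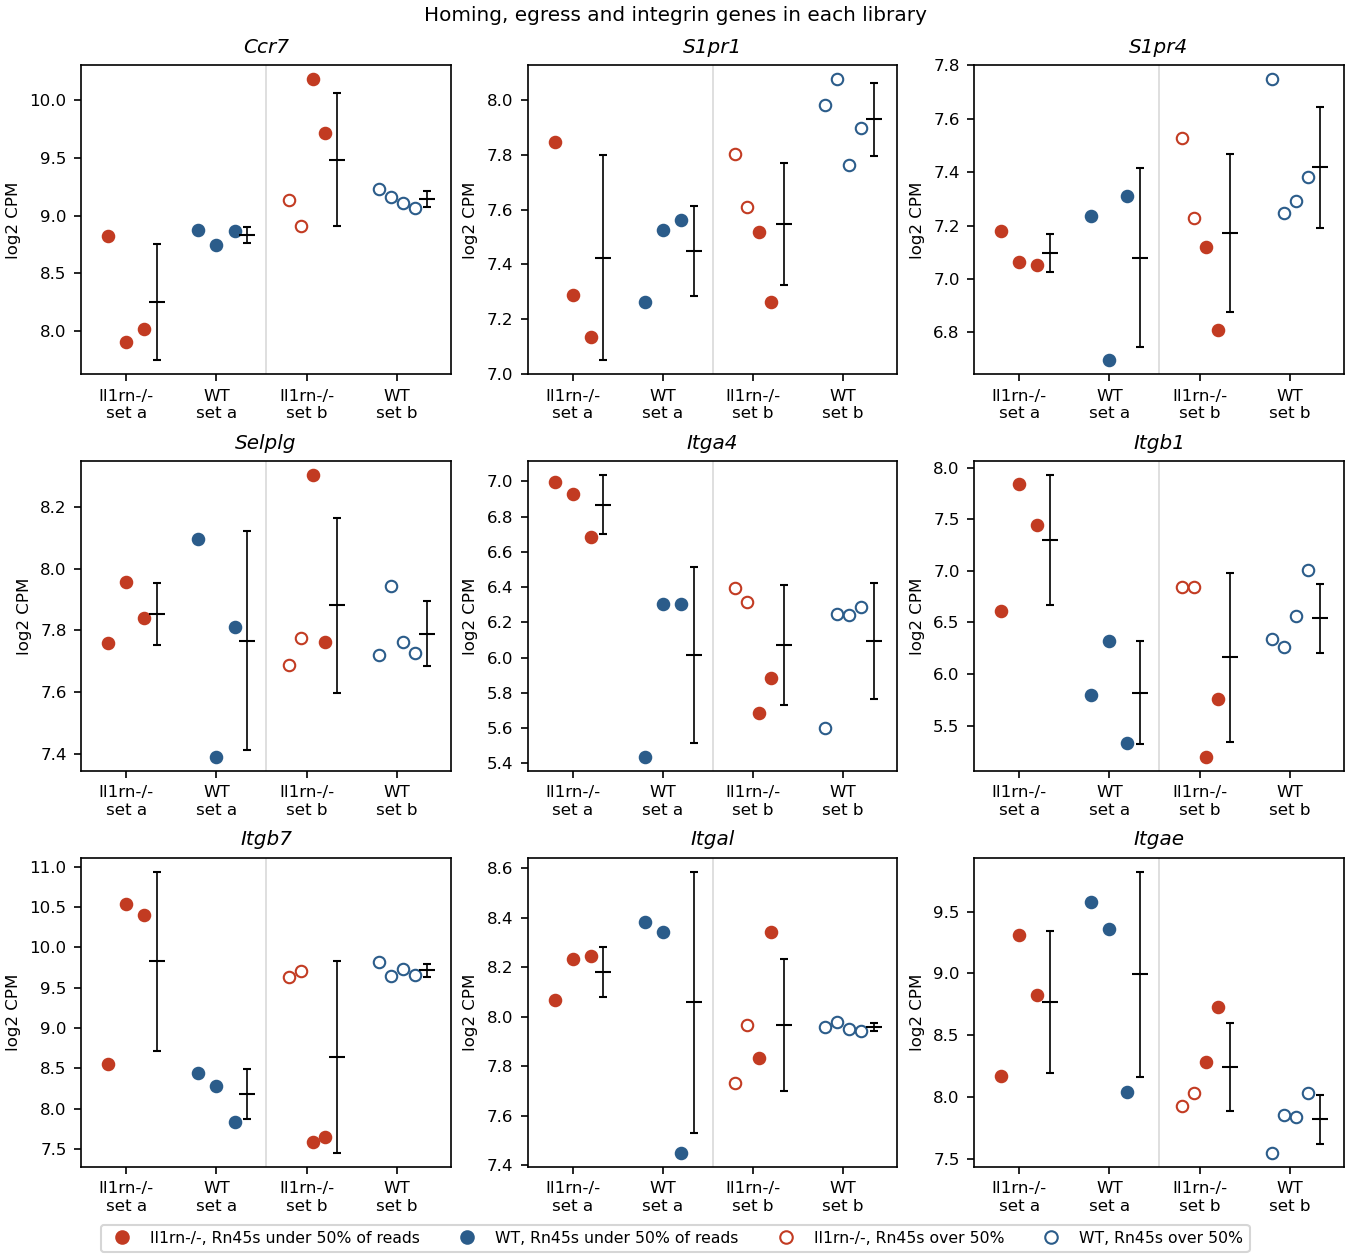
Log2 CPM of each gene in each library (1 panel per gene, y axis), for Il1rn-/- (red) and WT (blue) in set a and set b. Each point is a library, filled for the deep and open for the shallow group, and bars are mean ± SD. Itga4, Itgb1 and Itgb7 separate the genotypes in set a, and in set b the deep Il1rn-/- libraries 3-b and 4-b lie apart from the rest for Ccr7 and Itgb7.

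The entry receptor Ccr7 was at 8.82, 7.90 and 8.02 log2 CPM in Il1rn-/- 1-a to 3-a, against 8.87, 8.75 and 8.86 in WT 1-a to 3-a. In set b it was at 9.13, 8.91, 10.18 and 9.71 in Il1rn-/- 1-b to 4-b, against 9.23, 9.16, 9.11 and 9.07 in WT 1-b to 4-b. The lowest 2 of the 14 libraries were thus Il1rn-/- 2-a and 3-a and the highest 2 were Il1rn-/- 3-b and 4-b, while WT libraries stayed between 8.75 and 9.23. The SD was 0.83 in Il1rn-/- and 0.18 in WT (n = 7 each). These SDs are of unlike make-up, as Il1rn-/- 3-b and 4-b are deep libraries of set b, a kind that WT lacks. The difference between genotypes was -0.05 ± 0.22 (log2 estimate ± SE here and below) over all libraries, -0.58 ± 0.31 in set a and 0.34 ± 0.27 in set b. Among the shallow libraries the set b direction turned, to -0.12 ± 0.10. The contrast of set a minus that of set b was -0.92 ± 0.41, with an adjusted p of 0.620 by limma.

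S1pr1, the receptor for exit into lymph, was at 7.85, 7.29 and 7.14 log2 CPM in Il1rn-/- 1-a to 3-a, against 7.26, 7.52 and 7.56 in WT 1-a to 3-a. The values in set b were 7.80, 7.61, 7.52 and 7.26 in Il1rn-/- 1-b to 4-b, against 7.98, 8.08, 7.76 and 7.90 in WT 1-b to 4-b. Genotypes overlapped in both sets, and in set b 3 of 4 Il1rn-/- libraries lay below every WT library. The genotype difference was -0.23 ± 0.15 over all libraries (95% interval -0.53 to 0.07, adjusted p 0.792 by limma), -0.02 ± 0.22 in set a and -0.38 ± 0.19 in set b. With the library group in place of the letter it was -0.12 ± 0.13, and among the 6 shallow libraries alone -0.22 ± 0.11.

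S1pr4, a related receptor found mainly on blood cells, ranged over 7.05 to 7.18 in Il1rn-/- and 6.70 to 7.31 in WT of set a, and over 6.81 to 7.53 in Il1rn-/- and 7.25 to 7.75 in WT of set b (log2 CPM). It differed by -0.13 ± 0.15 over all libraries, by 0.02 ± 0.22 in set a and by -0.25 ± 0.19 in set b. Both receptors for sphingosine 1-phosphate were lower in the deep than in the shallow group: S1pr1 averaged 7.42 ± 0.23 and 7.86 ± 0.17, and S1pr4 7.06 ± 0.21 and 7.41 ± 0.20 (SD, n = 8 deep and 6 shallow). Among the shallow libraries the difference of S1pr4 was -0.04 ± 0.17 (95% interval -0.47 to 0.40).

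Selplg encodes PSGL-1, the ligand on leukocytes that selectins catch during rolling. It had 7.39 to 8.30 log2 CPM in the 14 libraries, the narrowest range of the 9 genes on this scale. Il1rn-/- libraries ranged over 7.69 to 8.30 with a median of 7.77, and WT libraries over 7.39 to 8.10 with a median of 7.76. The genotype difference was 0.09 ± 0.14, with a 95% interval of -0.21 to 0.39. Set a gave 0.09 ± 0.22, set b 0.09 ± 0.19 and the shallow libraries -0.06 ± 0.09.

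Among the integrins, Itgb7 spanned the widest range of the 9 genes, 2.96 log2 units. It was at 8.55, 10.54 and 10.39 log2 CPM in Il1rn-/- 1-a to 3-a, against 8.44, 8.28 and 7.83 in WT 1-a to 3-a. In set b the values were 9.63, 9.71, 7.58 and 7.64 in Il1rn-/- 1-b to 4-b, against 9.81, 9.65, 9.74 and 9.66 in WT 1-b to 4-b. All 3 Il1rn-/- libraries lay above WT in set a, 2 of them by far. In set b the shallow Il1rn-/- libraries overlapped WT and the deep ones lay well below. By limma the genotype difference was 1.65 ± 0.54 in set a (95% interval 0.52 to 2.78, unadjusted p 0.00663, adjusted p 1.00) and -1.07 ± 0.47 in set b (unadjusted p 0.0331, adjusted p 0.307). Neither passed. Without Il1rn-/- 3-b and 4-b, in the shallow libraries alone, the set b difference was -0.05 ± 0.10 (95% interval -0.29 to 0.20).

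Itgb1, the beta chain of most receptors for fibronectin and VCAM-1, had a like order of libraries. It was at 6.61, 7.84 and 7.44 log2 CPM in Il1rn-/- 1-a to 3-a, against 5.80, 6.32 and 5.33 in WT 1-a to 3-a. In set b it was at 6.84, 6.85, 5.20 and 5.76 in Il1rn-/- 1-b to 4-b, against 6.34, 6.26, 6.56 and 7.005 in WT 1-b to 4-b. Set a was again separated by genotype and set b again was not, with Il1rn-/- 3-b and 4-b lowest there. The difference was 1.48 ± 0.40 in set a (unadjusted p 0.00144, adjusted p 1.00 by limma), -0.38 ± 0.34 in set b and 0.42 ± 0.33 over all libraries. Among the shallow libraries, without Il1rn-/- 3-b and 4-b, the set b direction turned, to 0.30 ± 0.22.

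Itga4, the alpha chain that both of these can pair with, was at 6.99, 6.93 and 6.68 log2 CPM in Il1rn-/- 1-a to 3-a, against 5.44, 6.31 and 6.30 in WT 1-a to 3-a. In set b it was at 6.39, 6.32, 5.69 and 5.88 in Il1rn-/- 1-b to 4-b, against 5.60, 6.25, 6.24 and 6.28 in WT 1-b to 4-b. The genotypes did not overlap in set a and were interleaved in set b. The difference was 0.85 ± 0.27 in set a (unadjusted p 0.00492, adjusted p 1.00 by limma), -0.02 ± 0.23 in set b and 0.35 ± 0.20 over all libraries (adjusted p 0.787). It was 0.26 ± 0.22 among the shallow libraries.

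Itga4, Itgb1 and Itgb7 were thus 3 of the 9 genes whose Il1rn-/- libraries all lay above WT in set a, and 0 of the 9 lay wholly below. Over all 12329 tested genes, 4.36% lay wholly above and 3.61% wholly below. The same 3 genes, 3 of 9, had an unadjusted p under 0.05 in set a, against 1.97% of all genes, and 0% of all genes passed after adjustment. The spread behind these p-values by limma was shared by all 4 groups, and is not that of set a alone. With set a fitted alone there were 3 of 9, against 4.64% of all genes. In set b the genotypes separated for 0 of 9 genes, against 2.36% of genes higher and 1.92% lower. There, 1 of 9 (Itgb7) had an unadjusted p under 0.05, against 15% of all genes. With set b fitted alone there was 1 of 9, against 9.85%. The contrast of set a minus that of set b was 2.72 ± 0.71 for Itgb7, 1.86 ± 0.52 for Itgb1 and 0.88 ± 0.35 for Itga4, each at an adjusted p of 0.610 by limma, where 0% of all genes passed. With Ccr7, 4 of 9 genes had an unadjusted p under 0.05 for this contrast, against 7.85% of all genes. The WT libraries of set a include both WT libraries with Y-linked transcripts, and those of Il1rn-/- in set a hold none. Within the deep group Itga4 was at 5.44 to 6.31 in the 4 libraries with these transcripts and 6.30 to 6.99 in the 4 without. Itgb1 was at 5.20 to 6.32 and 5.33 to 7.84, and Itgb7 at 7.58 to 8.44 and 7.83 to 10.54. The 4 without are Il1rn-/- 1-a to 3-a and WT 3-a, so this split largely repeats that by genotype. WT 3-a was at 6.30 for Itga4, 5.33 for Itgb1 and 7.83 for Itgb7. The part of Y-linked transcripts in the set a difference was not tested apart from genotype. Over all libraries, with the library group and these transcripts in the model, the genotype difference was 0.22 ± 0.16 for Itga4, 0.42 ± 0.29 for Itgb1 and 0.22 ± 0.34 for Itgb7.

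**Figure D2:**
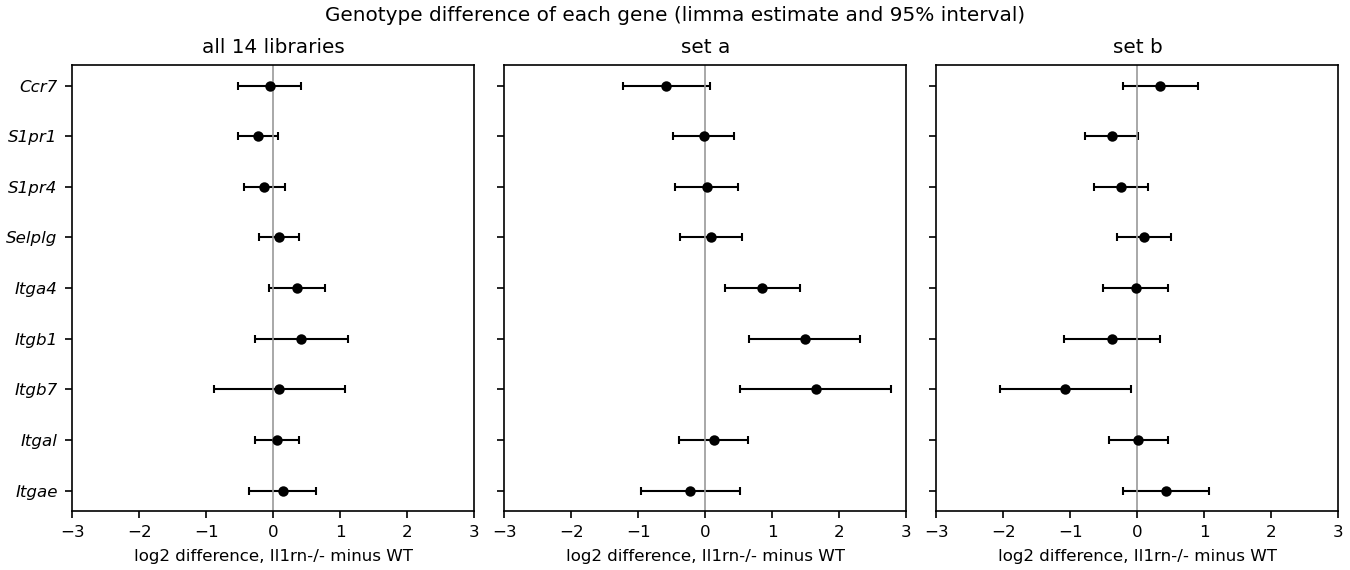
Log2 difference of Il1rn-/- minus WT (x axis) for each gene (y axis) over all 14 libraries, in set a and in set b. Points are limma estimates and bars 95% intervals. The intervals of Itga4, Itgb1 and Itgb7 lie above 0 in set a, that of Itgb7 lies below 0 in set b, and 0 of these passed after adjustment.

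The promoters of these 3 integrin genes are shown because their transcripts separated the genotypes in set a. RefSeq gives a promoter for 4 of the 9 genes in the table used here (Itga4, Itgb1, Itgb7 and S1pr4). The lines give the 250 bases before the start of transcription in build GRCm38.p6, 5′ to 3′ on the gene's own strand. Capitals mark CACCC, the core bound by KLF family factors, or its reverse complement GGGTG.
Itga4, chr2:79255176-79255425, plus strand: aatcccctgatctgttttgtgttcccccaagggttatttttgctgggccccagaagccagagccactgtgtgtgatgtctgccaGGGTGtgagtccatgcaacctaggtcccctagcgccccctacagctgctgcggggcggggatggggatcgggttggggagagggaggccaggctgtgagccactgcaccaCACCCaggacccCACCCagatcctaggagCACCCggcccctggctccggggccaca
Itgb1, chr8:128685404-128685653, plus strand: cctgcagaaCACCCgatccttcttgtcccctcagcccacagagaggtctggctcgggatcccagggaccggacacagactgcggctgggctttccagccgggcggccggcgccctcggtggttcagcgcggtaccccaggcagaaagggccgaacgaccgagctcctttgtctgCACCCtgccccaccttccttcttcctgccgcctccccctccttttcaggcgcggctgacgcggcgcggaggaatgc
Itgb7, chr15:102231936-102232185, minus strand: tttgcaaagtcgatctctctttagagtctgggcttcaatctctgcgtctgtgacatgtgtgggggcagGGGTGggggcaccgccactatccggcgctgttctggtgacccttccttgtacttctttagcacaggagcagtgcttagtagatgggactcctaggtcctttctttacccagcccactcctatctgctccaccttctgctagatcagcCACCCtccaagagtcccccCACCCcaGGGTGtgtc
Counted on both strands, CACCC occurred 4 times before Itga4, 2 times before Itgb1, 4 times before Itgb7 and 1 time before S1pr4. All 4 windows thus held it at least 1 time, as did 52% of all 32851 promoter windows of this length. How often a window holds it more than 1 time was not counted over all promoters. The forkhead core GTAAACA was in 0 of the 4 windows and in 3.17% of all windows, so no motif overlapped another. Of the 250 bases, 64% were G or C for Itga4, 68% for Itgb1, 56% for Itgb7 and 38.8% for S1pr4.

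Itgal is the alpha chain of LFA-1, the integrin that arrests lymphocytes on ICAM-1. It had 8.07, 8.23 and 8.25 log2 CPM in Il1rn-/- 1-a to 3-a, against 8.39, 8.34 and 7.45 in WT 1-a to 3-a. Set b values were 7.73, 7.97, 7.83 and 8.34 in Il1rn-/- 1-b to 4-b and 7.94 to 7.98 in the 4 WT libraries. The groups overlapped in both sets, and the genotype difference was 0.06 ± 0.16 over all libraries (95% interval -0.27 to 0.38), 0.01 ± 0.21 in set b and -0.11 ± 0.08 among the shallow libraries.

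Itgae encodes CD103, the alpha chain that retains T cells at epithelia and marks many peripheral Tregs. It was at 8.17, 9.31 and 8.83 log2 CPM in Il1rn-/- 1-a to 3-a, against 9.58, 9.36 and 8.04 in WT 1-a to 3-a. In set b it was at 7.93, 8.03, 8.28 and 8.73 in Il1rn-/- 1-b to 4-b, against 7.55, 7.86, 7.84 and 8.03 in WT 1-b to 4-b. Libraries of both genotypes were spread widely in set a, and all 4 Il1rn-/- libraries of set b lay above the WT mean but overlapped the WT range. The difference was 0.15 ± 0.24 over all libraries, -0.22 ± 0.35 in set a and 0.42 ± 0.31 in set b (adjusted p 0.524 by limma). It was 0.16 ± 0.14 among the shallow libraries and -0.13 ± 0.22 over all libraries with the library group in place of the letter. Itgae is overlapped on the opposite strand by Haspin and Itga4 by Cerkl in the reference annotation, and no source used here says whether counting kept to 1 strand. Whether reads in a stretch shared by both genes of a pair were told apart is therefore not known.

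Across the 8 deep libraries Ccr7 and Itgb7 ran in opposite order at the ends. Il1rn-/- 2-a and 3-a had the most Itgb7 and Itgb1 and the least Ccr7, and Il1rn-/- 3-b and 4-b had the least Itgb7 and the most Ccr7. In the 6 shallow libraries Ccr7 ranged over 8.91 to 9.23, Itgb7 over 9.63 to 9.81 and Itgb1 over 6.26 to 7.005. The 5 deep Il1rn-/- libraries thus spread over 2.27 log2 units of Ccr7 and 2.96 of Itgb7. The 3 deep WT libraries spanned 8.75 to 8.87 and 7.83 to 8.44. These ranges are of unlike make-up, as the 5 came from both sets and the 3 from set a only. Within set a the SD was larger in Il1rn-/- for Ccr7, S1pr1, Itgb1 and Itgb7. It was larger in WT for S1pr4, Selplg, Itga4, Itgal and Itgae (n = 3 each). Within Il1rn-/- of set b, the deep libraries 3-b and 4-b did not overlap the shallow 1-b and 2-b in 7 of 9 genes. Ccr7 and Itgae were higher in the deep pair, as were 27.3% of all tested genes, and S1pr1, S1pr4, Itga4, Itgb1 and Itgb7 were lower, as were 24.2%.

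**Figure D3:**
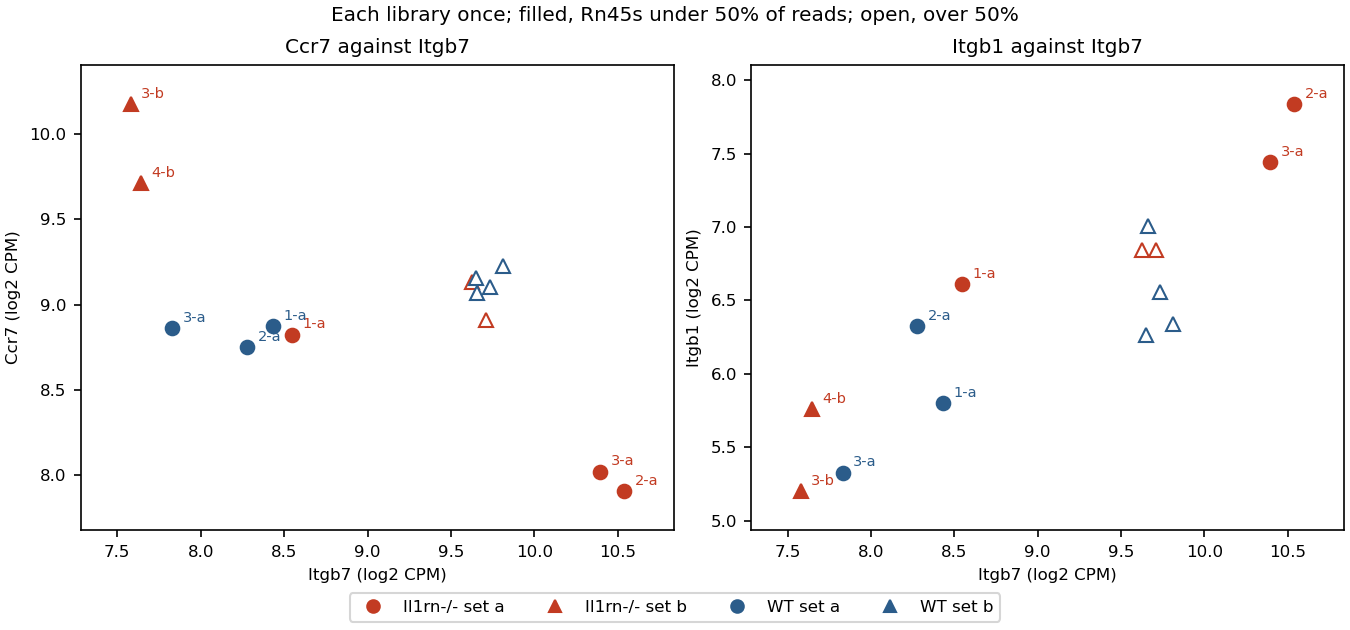
Log2 CPM of Ccr7 (left) and Itgb1 (right) on the y axes against Itgb7 on the x axis, with 1 point per library. Circles are set a and triangles set b, red Il1rn-/- and blue WT, filled deep (with the replicate named) and open shallow. Il1rn-/- 2-a and 3-a sit at 10.54 and 10.39 for Itgb7 and at 7.90 and 8.02 for Ccr7, while Il1rn-/- 3-b and 4-b sit at 7.58 and 7.64 for Itgb7 and at 10.18 and 9.71 for Ccr7.

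The lettered sets differed in 2 of the 9 genes by limma with genotype in the model, against 19.5% of all genes tested (11% higher and 8.48% lower in set a), a share close to the background. At an unadjusted p under 0.05 these were also 2 of 9, against 34.2% of all genes. Ccr7 fell to 8.54 ± 0.45 log2 CPM in set a, against 9.31 ± 0.42 in set b (SD, n = 6 and 8), a log2 difference of -0.77 ± 0.23 (adjusted p 0.0234 by limma). All 6 libraries of set a lay below all 8 of set b, which 0.73% of tested genes did, and 0 of the 9 lay wholly above, against 0.771%. The call was lost without Il1rn-/- 2-a (-0.64, adjusted p 0.0651 by limma) and without Il1rn-/- 3-a (-0.67, adjusted p 0.0634), over a range of adjusted p across alternatives of 0.00799 to 0.0651. Itgae rose to 8.88 ± 0.65 in set a, against 8.03 ± 0.35 in set b, a difference of 0.85 ± 0.24 (adjusted p 0.0203 by limma). That call was lost without WT 1-a (0.68, adjusted p 0.0636 by limma) and without WT 2-a (0.73, adjusted p 0.0655), over a range of 0.00578 to 0.872.

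Library group and letter were separated by a further fit, chosen after the data were seen, with both as terms. The set term then rests on set a against Il1rn-/- 3-b and 4-b, which are also the libraries of set b with Y-linked transcripts, and 0.0973% of genes were called. Ccr7 was among them (log2 difference -1.59 ± 0.24, adjusted p 0.0101 by limma). Itgae was not (0.35 ± 0.34, adjusted p 0.872), nor were Itgb7 (1.82 ± 0.46, adjusted p 0.144), Itgb1 (1.54 ± 0.36, adjusted p 0.102) or Itga4 (0.94 ± 0.26, adjusted p 0.197). Itgae had 8.79 ± 0.59 log2 CPM in the deep and 7.87 ± 0.18 in the shallow group. Itgb7 went the other way in the averages, with 8.66 ± 1.17 in the deep and 9.70 ± 0.07 in the shallow group (SD, n = 8 and 6).

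Levels were compared between the genes per kilobase of the longest coding transcript of GENCODE M21, which may not be the annotation behind the deposited values. Ccr7 led with a mean log2 CPM per kilobase of 7.997 ± 0.58, followed by Itgb7 (7.68 ± 1.01), Selplg (6.93 ± 0.21), Itgae (6.45 ± 0.65), S1pr1 (6.002 ± 0.30), S1pr4 (5.95 ± 0.27), Itgal (5.65 ± 0.26), Itgb1 (4.51 ± 0.75) and Itga4 (2.95 ± 0.46; SD, n = 14). Every neighbouring pair in this order overlapped between its libraries, and S1pr1 and S1pr4 differed by less than the SD of either. Itga4 has a transcript of 9767 bases, the longest of the 9. With the shortest coding transcript of each gene in its place, Itgb7 (10.59 ± 1.01) and Selplg (9.30 ± 0.21) came before Ccr7, so the order depends on the transcript used.

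**Figure D4:**
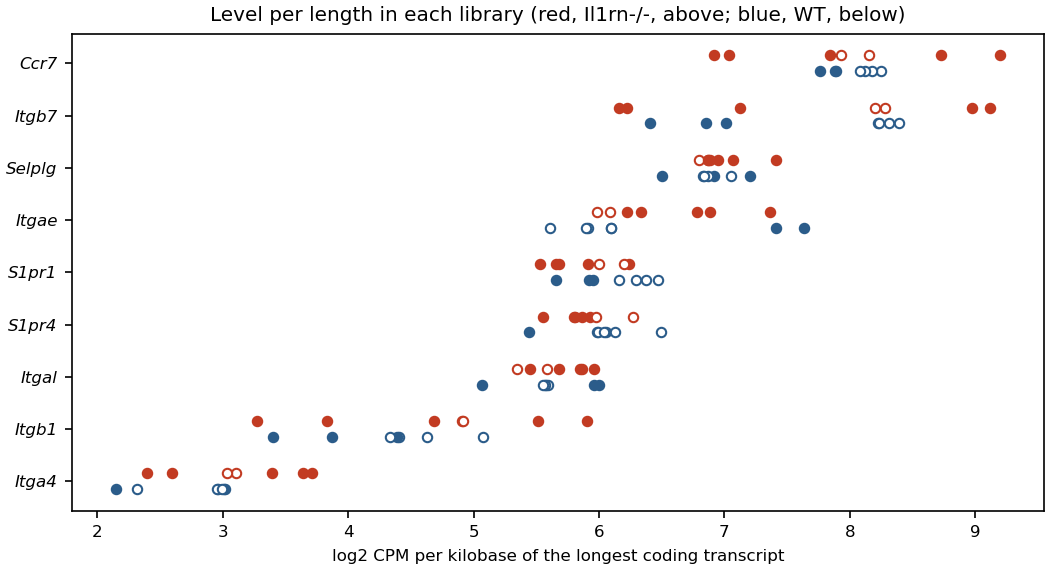
Log2 CPM per kilobase of the longest coding transcript (x axis) for each gene (y axis), with 1 point per library, Il1rn-/- in red above WT in blue, filled deep and open shallow. Ccr7 has the highest mean, 7.997, and Itga4 the lowest, 2.95, and the ranges of neighbours overlap.

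Other genes of the same pathways gave 0 calls for genotype. Of 92 tested genes in 7 lists, 0 passed in the comparison over all libraries, 0 in set a, 0 in set b and 0 for the difference of the genotype contrasts (limma). At an unadjusted p under 0.05 there were 3 of the 92 over all libraries, against 5.51% of all genes, 4 in set a, against 1.97%, 14 in set b, against 15%, and 11 for the difference of the contrasts, against 7.85%. The median log2 difference over all libraries was -0.08 for 10 homing receptors and their regulators, 0.07 for 19 signalling genes of these receptors and 0.18 for 13 other integrin chains. It was 0.04 for 26 genes of integrin activation, 0.07 for 11 genes of selectin ligand glycosylation, -0.16 for 7 genes of sphingosine 1-phosphate metabolism and 0.09 for 6 ligands made mainly by other cells, beside 0.04 for all genes. With the library group in place of the letter the median of the other integrin chains was -0.16 and that of the ligands -0.07.

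Cxcr4, the receptor for the chemokine CXCL12, had the lowest p of the homing list. It averaged 4.68 ± 1.02 log2 CPM in Il1rn-/- and 5.51 ± 1.05 in WT (SD, n = 7 each), a difference of -0.84 ± 0.31 at an adjusted p of 0.787 by limma, and -0.44 with the library group in place of the letter. Klf3, a transcriptional repressor of the KLF family, differed by -0.62 ± 0.28 and S1pr2, a sphingosine 1-phosphate receptor that holds cells back, by -0.39 ± 0.20. Sipa1, a GTPase activator that switches off Rap1 and with it integrin adhesion, differed by 0.52 ± 0.19 over all libraries and by 1.01 ± 0.25 in set a (adjusted p 1.00 by limma). It was at 6.88, 7.57 and 7.59 in Il1rn-/- 1-a to 3-a, against 6.52, 6.47 and 6.01 in WT 1-a to 3-a. The genotypes were thus apart in set a as for Itga4, Itgb1 and Itgb7, where 4.36% of all tested genes had Il1rn-/- wholly higher. Itgb2, the partner chain of Itgal, differed by 0.21 ± 0.17, but only by 0.04 once the library group replaced the letter. Itga6, a laminin receptor chain, differed by 0.29 ± 0.17.

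In the remaining lists the lowest p belonged to Gnb1 (-0.32 ± 0.16), Gna13 (0.38 ± 0.21) and Grk2 (0.16 ± 0.12) among signalling genes, and to Rassf5 (0.27 ± 0.16) and Dok1 (0.36 ± 0.23) after Sipa1. Among glycosylation genes they were Tpst2, which sulfates PSGL-1 (0.27 ± 0.19), Fut7, which fucosylates selectin ligands (-0.36 ± 0.27), and C1galt1c1 (0.32 ± 0.25). For sphingosine 1-phosphate they were Plpp2 (-0.73 ± 0.42), Sgpp2 (0.76 ± 0.51) and Sgpp1 (-0.53 ± 0.37). Vcam1 (1.32 ± 0.79), Fn1 (-1.39 ± 0.93), Icam1 (0.25 ± 0.22) and the integrin chain Itga2b (1.00 ± 0.89) completed the set, and of these only Icam1 averaged above 1 log2 CPM in both genotypes. All of these had an adjusted p of 0.787 to 0.838 by limma. With the library group in place of the letter the direction of Icam1 turned, to -0.07, and several other differences shrank by over 1.5 times. Gnb1 came to -0.11, Gna13 to 0.17, Grk2 to 0.05 and Rassf5 to 0.09. Tpst2 came to 0.07, Plpp2 to -0.33, Sgpp1 to -0.18, Vcam1 to 0.88, Itga2b to 0.22 and Itga6 to 0.19.

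Between the lettered sets 13 of the 92 genes passed by limma, 14.1% against 19.5% of all genes, 5 higher and 8 lower in set a. Cxcr4 fell by 1.47 on the log2 scale (SE 0.31, adjusted p 0.00438). Sipa1 (0.92 ± 0.19), the exchange factor Dock2 (0.67 ± 0.16), Cyth1 (0.50 ± 0.15), Gcnt1, which builds the core of selectin ligands (1.11 ± 0.34), and Icam1 (0.80 ± 0.22) rose. Falls were also found in Foxo3, Gnb1, Rac1, Rhoa, Ilk and Plpp2, with log2 differences of -2.02 to -0.48.

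The genes whose values ran most like those of 3 members were sought among 5227 genes averaging at least 4 log2 CPM, over 14 libraries with the mean of the library group subtracted. Closest to Ccr7 were Cct3, a subunit of a cytosolic chaperonin (Pearson's r 0.87), and Rgs1, a regulator that dampens chemokine receptor signalling (0.86). Closest to S1pr1 were Tinf2 (0.75) and Trmt10c (0.74), and closest to Itgae were Cyfip2 (0.92) and Hif1a (0.92). These values describe the same 14 libraries, which share differences in depth and set, and carry no test.

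Among markers of other cells, Xbp1 (84 to 456 reads per library) and Pecam1 (56 to 586 reads) had read counts near those of Itga4. That is the member with the lowest mean log2 CPM, with 65 to 594 reads. H2-Ab1, with 33 to 222 reads, reached into the same range. Dendritic cells also carry Ccr7, Itgb7 and Itgae, and the 5 dendritic cell markers present summed to 21.6 to 47.5 CPM in the deep and 51.9 to 139 CPM in the shallow group, most of it H2-Ab1, with Zbtb46 and Siglech at 0 reads in 7 libraries each. By genotype they summed to 25.5 to 38.8 CPM in Il1rn-/- and 22.3 to 47.5 in WT of set a, and to 21.6 to 77.6 in Il1rn-/- and 51.9 to 139 in WT of set b. The 8 B cell markers summed to 49.7 to 58.4 CPM in Il1rn-/- and 46.9 to 66.1 in WT of set a, and to 18.5 to 39.3 in Il1rn-/- and 29.99 to 66.4 in WT of set b, with Pax5 at 0 reads in 7 libraries. The 5 CD8 T and NK cell markers summed to 12.9 to 23.3 CPM in the deep and 27.9 to 46.6 in the shallow group, and the 4 myeloid markers to 1.502 to 25.1 CPM in all, with Klrb1c and Cd14 at 0 reads in 10 libraries each. The 4 plasma cell markers summed to 47.97 to 182 CPM in the deep and 119.6 to 186 in the shallow group. Xbp1 led this sum, followed by Prdm1 (17 to 215 reads), with Jchain at 0 reads in 8 libraries and Sdc1 in 9. The 3 stromal and endothelial markers, led by Pecam1, summed to 64.6 to 107 and 66.2 to 80.9 CPM, with Madcam1 at 0 reads in 10. The part of these cells in the results was not tested, and in bulk RNA fewer cells with a transcript and less transcript per cell cannot be told apart.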

How the data were processed

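RNA of sorted cells was purified on RNeasy Micro columns and made into Smart-Seq2 libraries, per the labels' protocols, which name Cuffquant 2.2.1. TopHat2 2.0.10, Cufflinks 2.2.1, Cuffnorm and BWA stand in the submitters' processing notes. For the build, the annotation, the strand handling and the last step to the final values the answer is: not given in the sources used here. The deposited values are log2 CPM, made by the authors relative to an effective library size that was 0.690 to 1.61 times the reads in the table. The lowest value, -3.58, stands for 0 reads. Whole reads were recovered from the evenly spaced steps (100% lay within 0.001 of an integer) and used for depth, limma voom and library shares. Without molecular identifiers, reads of 1 molecule may be counted repeatedly.

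Testing took genes above 1 CPM in 3 or more libraries and used limma 3.58.1 in R 4.3.3 (intensity trend, two-sided, Benjamini-Hochberg over all tested genes, threshold 0.05). Genotype and letter were the terms over all libraries, and a model of 4 groups gave the contrasts within and between sets. In that model the spread of a gene was shared by all 4 groups. Libraries with Rn45s under 50% of reads were called deep and the others shallow, and libraries with at least 20 reads of Y-linked genes were called positive for them. Pearson's r for likeness, lengths and promoter motifs were computed in Python 3.11.15 with numpy 2.4.6 and pandas 2.3.3, and figures with matplotlib 3.10.9. Simulated data with known changes served to test the steps. Those changes were by genotype only, with none by set, library group or Y-linked transcripts. The simulation therefore does not show how the fits handle such differences. All 9 members are named. From each list, genes that passed for genotype, or else the 3 with the smallest p, are named. The members, lists and alternatives were chosen with earlier results of these data known. No library was left out. The planned comparison of protein sequences was not made, as no protein table was used here. The values of 1 gene of these lists are not reported here.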

Additional observations from a re-analysis of the deposited data

Results flagged for a closer look

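Among 18 combinations of a gene and a group of 4 libraries (set b), 2 held a library far from the other 3 by Dixon's ratio, which chance gives in about 1 in 20 groups. Selplg stood at 8.30 log2 CPM in Il1rn-/- 3-b, against 7.69 to 7.77 in the other Il1rn-/- libraries of set b. Itga4 stood at 5.60 in WT 1-b, against 6.24 to 6.28 in the other WT libraries of set b, from 65 to 142 reads in these 4 libraries.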

How the results depend on the processing

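The count of members called for genotype was 0 over all libraries, in set a, in set b and for the difference of the genotype contrasts under each alternative that was run, single libraries left out included, with adjusted p by limma of 0.0899 or more. Between the lettered sets, 2 members were called, 0 without the intensity trend (adjusted p by limma 0.0515 for Ccr7 and 0.0543 for Itgae), 1 with the library group as a further term and 1 to 3 with single libraries left out. The third call was S1pr1 without Il1rn-/- 1-a (-0.42, adjusted p 0.0498 by limma). With Rn45s left out of the library size the median of all genes was -0.07 over all libraries, against 0.04 as deposited, -0.13 in set b, against 0.05, and 0.13 for the difference of the contrasts, against -0.02. In that scaling Selplg came to -0.022, Itgb7 to -0.02 and Itgal to -0.0532 over all libraries, Selplg to -0.0908 and Itgal to -0.17 in set b, and Selplg to 0.16 for the difference of the contrasts. With each library centred on its median S1pr4 came to -0.0474 in set a. With the library group in place of the letter Ccr7 came to 0.0086 and Itgae to -0.13, with Y-linked transcripts added to 0.17 and -0.0661, and in the deep libraries alone to 0.10 and -0.33. In the shallow libraries alone, which are all of set b, Selplg came to -0.0581, Itgb7 to -0.0467 and Itgal to -0.11. With the library group as a further term, chosen after seeing the data, set a minus set b was 0.12 for S1pr4 and 1.82 for Itgb7. These are changes of sign, and the cause was not tested. Over all genes, the count called for genotype was 0 in set b, against 230 without Il1rn-/- 2-b, 7 without Il1rn-/- 1-b, 3 without WT 1-b and 6 without the intensity trend. It was 1 in set a without WT 3-a or with that set fitted alone, 2 for the difference of the contrasts without the intensity trend, and over all libraries 2 in the deep and 13 in the shallow libraries alone. Between the sets 2408 genes were called, against 12 with the library group as a further term, and 1355 to 3376 with single libraries left out (1355 without WT 2-a, 1570 without WT 1-a). Below about 100 reads, as for Itga4 and Itgb1 in some shallow libraries, counting error limits the values.

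With single libraries left out, values that crossed 0 ranged from -0.21 to 0.062 for Ccr7, -0.19 to 0.38 for Itgb7 and -0.0615 to 0.11 for Itgal over all libraries. In set a they ranged from -0.24 to 0.12 for S1pr1, -0.17 to 0.13 for S1pr4, -0.10 to 0.25 for Selplg, -0.18 to 0.28 for Itgal and -0.70 to 0.077 for Itgae. In set b they ranged from -0.048 to 0.16 for Selplg, -0.19 to 0.10 for Itga4 and -0.11 to 0.0893 for Itgal. For the difference between the genotype contrasts they ranged from -0.19 to 0.16 for Selplg and -0.19 to 0.27 for Itgal, and between the sets from -0.10 to 0.0563 for Selplg, -0.0281 to 0.43 for Itgb1 and -0.50 to 0.0744 for Itgb7. In set a, leave-one-out values were 0.56 to 1.00 for Itga4, 1.21 to 1.82 for Itgb1 and 1.29 to 2.29 for Itgb7. Their Il1rn-/- libraries all lay above WT there, so leaving 1 out could not turn the sign. These ranges show only how far the size moved.

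With the replicate number as a block, 0 members were called in the 4 genotype comparisons. Deviations of same-numbered libraries correlated at -0.29 to 0.06 over 7 pairs, and 2 of 14 libraries correlated best with their own number. This gave no sign that the numbers pair libraries. In Il1rn-/- of set b the deviations include the split of deep from shallow libraries, so the check could not decide the question.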

Other observations

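Cd69, an early activation receptor that removes S1PR1 from the cell surface and so holds cells in the node, was chosen after its values were seen. It was at 7.32, 7.39 and 7.18 log2 CPM in Il1rn-/- 1-a to 3-a, against 9.79, 9.40 and 7.79 in WT 1-a to 3-a. In set b it was at 7.07, 6.77, 10.42 and 9.76 in Il1rn-/- 1-b to 4-b, against 6.82, 6.72, 6.54 and 6.68 in WT 1-b to 4-b. The highest 4 values belonged to the 4 libraries with Y-linked transcripts, and the other 10 lay between 6.54 and 7.79. The genotype difference was -1.69 ± 0.69 for set a (adjusted p 1.00 by limma) and 1.82 ± 0.60 for set b (adjusted p 0.254), so neither passed. The genotype contrast of set a minus that of set b was -3.51 ± 0.92 (adjusted p 0.610 by limma).

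Rgs1, named above for its likeness to Ccr7, was at 8.73, 8.59 and 8.68 log2 CPM in Il1rn-/- 1-a to 3-a, against 9.22, 8.89 and 9.19 in WT 1-a to 3-a. The genotypes did not overlap in set a, where 3.61% of all tested genes had Il1rn-/- wholly lower. Rgs1 is in the list of 19 tested signalling genes, of which 0 passed for genotype in set a and 0 in set b by limma. In set b it was at 7.37, 7.77, 10.44 and 9.35 in Il1rn-/- 1-b to 4-b, against 7.90, 7.65, 7.61 and 7.63 in WT 1-b to 4-b.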
